A study of Mus musculus with 2 samples.

Results

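The tumour necrosis factor (TNF) ligands, their receptors and the TRAF adaptors were followed in RNA-seq of sorted splenic cells from infected mice. Members were the rows of the gene table whose symbol starts with Tnfsf or Tnfrsf, together with Tnf, Lta, Ltb, Ltbr, Cd40, Cd40lg, Cd27, Cd70, Fas, Fasl, Eda2r and the 6 genes Traf1 to Traf6. The rule took 49 of 30538 genes, of which 18 encode ligands, 25 receptors and 6 TRAFs. The series has 2 libraries, 1 per genotype: C57BL/6, and Ch25h-/-, in which cholesterol 25-hydroxylase, the enzyme that makes 25-hydroxycholesterol, is missing. Mice of both genotypes had received 100000 Listeria monocytogenes intravenously, and cells were taken at day 3, so neither library is from uninfected animals. About 100000 CD11b+, Ly6G-, Ly6C-low cells were sorted by flow cytometry, and the labels name them resident splenic macrophages. The number, age and sex of the mice behind each library are not given in the sources used here.

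TNF family ligands are mostly trimeric membrane proteins, some of them shed as soluble cytokines, and each binds one or a few receptors. Receptors with a cytoplasmic death domain, such as Fas and Tnfrsf1a, can assemble caspase-activating complexes, while others, such as Cd40 and Tnfrsf9, bind TRAF proteins directly and signal to NF-kB and MAP kinases. In the spleen, TNF and lymphotoxin shape lymphoid architecture and are needed for resistance to Listeria, CD40 and its relatives pass costimulatory signals between antigen-presenting cells and lymphocytes, and BAFF and APRIL sustain B cells.

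Counts over all genes came to 16957371 for C57BL/6 and 15986392 for Ch25h-/-. With 1 library per genotype no test between genotypes was possible. Each log2 ratio (Ch25h-/- over C57BL/6, from counts scaled with TMM factors) therefore carries an exact 95% interval of counting error alone. The targeted gene Ch25h had 3 counts in the C57BL/6 library and 0 in the Ch25h-/- library, too few to check the genotype labels. Macrophage markers were present: the 8 red pulp markers summed to 276 CPM (scaled counts per 1000000) in C57BL/6 and 169 CPM in Ch25h-/-. Of the 4 marginal zone macrophage markers, Marco (20.3 and 6.88 CPM) and Siglec1 (49.7 and 23.5 CPM) were lower by more than 2-fold in Ch25h-/-, Cd5l had 11.5 and 8.27 CPM, and Cd209b was at 0 in both. The 7 Ly6C-low monocyte markers summed to 606 and 480 CPM but moved both ways, with 5 log2 ratios below 0 and 2 above. Nr4a1 (219 and 167 CPM) made up the largest part of that sum. Fcgr4 (153 and 69.7 CPM) was lower by more than 2-fold, while Cx3cr1 (31.9 and 49.2 CPM) and Pglyrp1 (47.0 and 73.3 CPM) were higher. Markers of cells that the sort was to leave out were present and higher in Ch25h-/-: the 8 neutrophil markers summed to 1088 and 1971 CPM, all above a ratio of 1 and 4 of them by over 2-fold, with Ly6g at 8 and 41 counts. The 5 Ly6C-high monocyte markers summed to 1346 and 2075 CPM, with 5 above a ratio of 1 and 2 by over 2-fold. Per exon length, the 13 markers of natural killer (NK) and cytotoxic cells summed to 33641 TPM (counts per exon length, scaled to 1000000 over all genes) in C57BL/6 and 52328 TPM in Ch25h-/-, against 554 and 309 TPM for the red pulp macrophage markers. In bulk RNA, fewer cells of a type and less RNA per cell cannot be told apart.

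Of the 49 members, 40 were measured at a mean of at least 1 CPM over both libraries. A gene is called here when its scaled counts differed by at least 2-fold and its interval excluded a ratio of 1. Tnf, Cd40, Cd70 and Tnfrsf11a were called lower in the Ch25h-/- library and Tnfrsf10b was called higher. That is 4 of 40 measured members lower, or 10%, where 5.77% of all 11972 measured genes were called lower, and 1 of 40 higher, where 2.07% of all measured genes were. The counts are small, so no more than their size is read from them. Cd70 passed the 1 CPM minimum only through the C57BL/6 library, so it had to differ. Without it, 3 of 39 were called lower, or 7.69%. The median log2 ratio was -0.18 over the measured members and 0.01 over all measured genes. From a mean of 10 CPM upward, the medians were -0.22 for 30 members and 0.04 for all 8926 genes.

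Differences beyond counting error, counted at any size and so with the called members included, were common and mostly downward. The interval lay wholly below a ratio of 1 for 21 of 40 measured members (27.5% of all measured genes) and wholly above it for 9 (31.0% of all measured genes). It held a ratio of 1 for the remaining 10. The measured TRAFs were all below, at 6 of 6, the receptors were below in 11 of 21 and above in 4, and the ligands were below in 4 of 13 and above in 5. The other 9 members stayed under a mean of 1 CPM. Eda2r, the receptor of ectodysplasin A2, had no count in either library. Tnfrsf11b (osteoprotegerin, the soluble decoy of RANKL) and Tnfrsf19 had 0 counts in C57BL/6 and 1 in Ch25h-/-. No fold is given for these or for Tnfrsf17, at 3 and 0 counts.

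**Figure D1:**
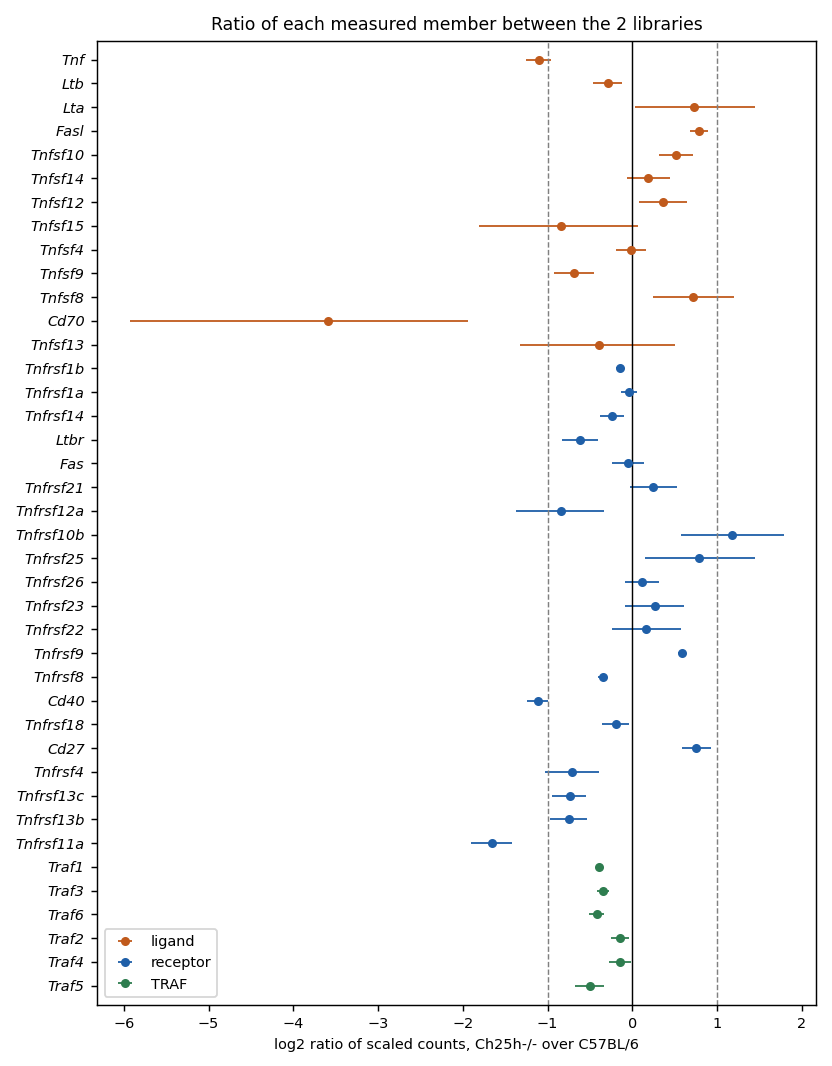
Log2 ratio of TMM-scaled counts, Ch25h-/- over C57BL/6 (x axis), for the 40 measured members (y axis), with exact 95% intervals of counting error as bars, 1 library per genotype and dashed lines at a 2-fold difference. Tnf, Cd40, Cd70 and Tnfrsf11a lie beyond the lower line and Tnfrsf10b beyond the upper one, and all 6 TRAFs lie left of 0.

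The members' RNA was concentrated in a few genes. Levels of different genes were compared per exon length, in TPM. Tnfrsf9 (4-1BB, a costimulatory receptor of activated NK and T cells), Tnfrsf1b (TNF receptor 2), Tnfrsf8 (CD30) and Traf1 together took 50.7% of the members' TPM in C57BL/6 and 55.2% in Ch25h-/-. In C57BL/6 Tnfrsf1b led with 685 TPM and Tnfrsf9 followed with 638 TPM. In Ch25h-/- Tnfrsf9 led with 925 TPM and Tnfrsf1b followed with 599 TPM, so the order of the leading pair was swapped between the libraries, with counting intervals that did not overlap in either. Those intervals do not cover the choice of exon length, here the union over transcripts (3818 bases for Tnfrsf1b, 2722 for Tnfrsf9), on which the order of genes within a library depends. Further down, Fasl moved from rank 8 (139.9 TPM) in C57BL/6 to rank 4 (234 TPM) in Ch25h-/-, and Tnf moved from rank 5 (183 TPM) to rank 10 (82.3 TPM). Cd27 moved from rank 20 to rank 12 and Cd40 from rank 10 to rank 16. Some neighbours in the order did not differ beyond counting error: Traf2 and Traf4, Traf4 and Tnfsf4, Tnfrsf18 and Ltb, and Traf6 and Tnfsf9 overlapped in both libraries.

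**Figure D2:**
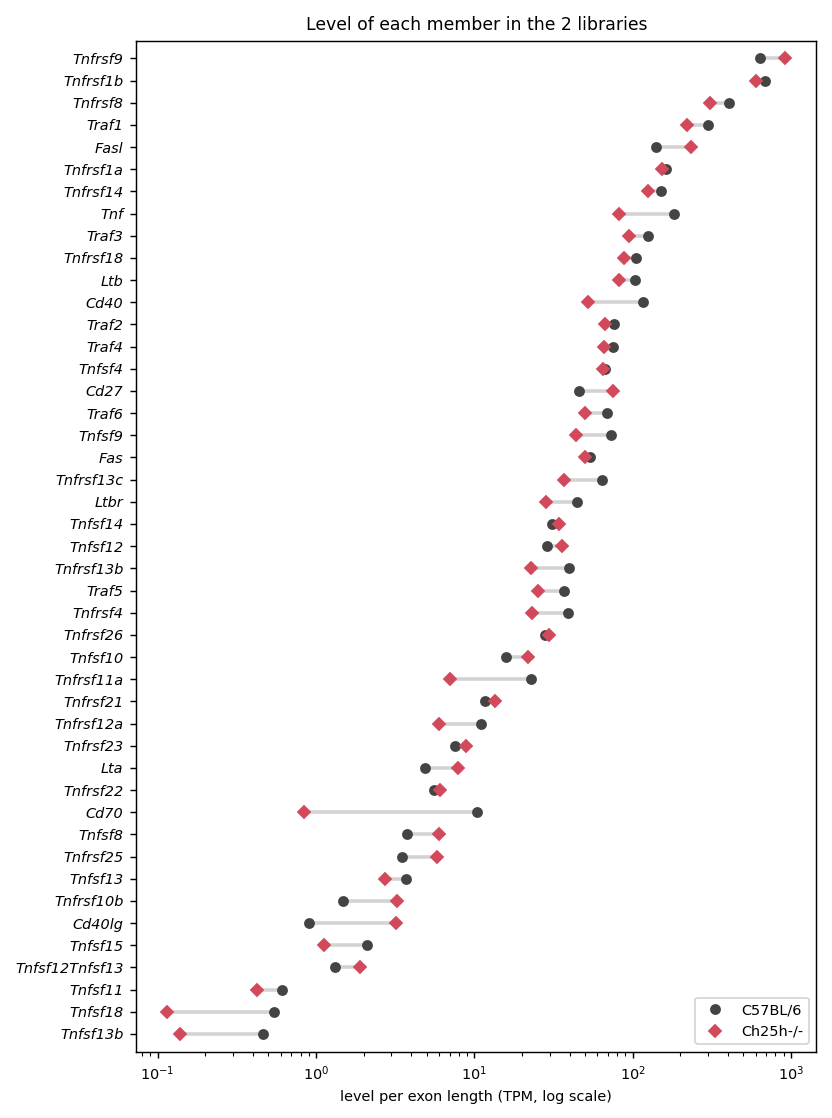
Level per exon length (TPM, log scale, x axis) of the 45 members with a count in both libraries (y axis, ordered by mean level), with circles for C57BL/6 and diamonds for Ch25h-/-, 1 library each. Tnfrsf9 and Fasl shift right in Ch25h-/-, while Tnf, Cd40, Tnfrsf11a and Cd70 shift left.

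The ligands of the TNF and lymphotoxin locus differed from each other. Tnf, the founding inflammatory cytokine of the family (ENSMUSG00000024401, GRCm38 chromosome 17, 35199381 to 35202007, minus strand), had 77.5 CPM in C57BL/6 and 36.0 CPM in Ch25h-/-. Its log2 ratio was -1.11 (95% interval -1.25 to -0.96), from 1326 and 570 counts, so that it is no longer called when the whole interval must lie beyond 2-fold. Ltb, which anchors lymphotoxin at the membrane, had 40.7 and 33.2 CPM (log2 ratio -0.29, interval -0.46 to -0.13). Lta, the soluble lymphotoxin subunit, was rare and leaned the other way, with 30 counts in C57BL/6 and 46 in Ch25h-/- (0.73, interval 0.03 to 1.44). Several marker lists were lower in the Ch25h-/- library, as Tnf was: dendritic cell markers (7 of 10 measured, 7 called lower), red pulp macrophage markers (7 of 8 below 0) and marginal zone macrophage markers (summed 81.5 and 38.7 CPM). Other lists were higher: Ly6C-high monocyte (1346 and 2075 CPM), neutrophil (1088 and 1971 CPM) and NK and cytotoxic markers (13347 and 21487 CPM). The part of any of these lists in the difference of Tnf was not tested. Between the neighbours, the log2 ratio of Lta exceeded that of Tnf by 1.83 (exact conditional interval 1.12 to 2.56), a comparison that does not depend on library scaling.

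The promoter windows of this locus are printed because its 3 genes lie side by side and their ratios were unequal, with that of Tnfrsf9, the member with the highest mean level, for comparison. They come from RefSeq, 250 bases before to 50 after the gene's start, 5′ to 3′ on the gene's strand. Capitals mark matches on either strand to the TATA box motif TATAAA and to NF-kB consensus motifs, which are GGG, then NNN for any 3 bases, then TTCC or TCCC (the forms can overlap each other).
Ltb (GRCm38.p6 chr17:35194257-35194556, plus strand): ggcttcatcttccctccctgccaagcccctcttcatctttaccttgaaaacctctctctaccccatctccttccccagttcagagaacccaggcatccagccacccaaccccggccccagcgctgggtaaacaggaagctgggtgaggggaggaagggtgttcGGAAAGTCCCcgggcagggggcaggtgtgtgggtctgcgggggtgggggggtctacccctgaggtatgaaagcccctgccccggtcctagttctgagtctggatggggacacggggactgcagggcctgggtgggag
Tnf (GRCm38.p6 chr17:35201958-35202257, minus strand): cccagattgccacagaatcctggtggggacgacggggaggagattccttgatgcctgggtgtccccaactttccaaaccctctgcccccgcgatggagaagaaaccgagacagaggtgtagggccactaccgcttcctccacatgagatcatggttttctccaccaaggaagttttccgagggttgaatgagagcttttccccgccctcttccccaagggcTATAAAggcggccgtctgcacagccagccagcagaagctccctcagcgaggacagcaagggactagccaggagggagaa
Lta (GRCm38.p6 chr17:35205302-35205601, minus strand): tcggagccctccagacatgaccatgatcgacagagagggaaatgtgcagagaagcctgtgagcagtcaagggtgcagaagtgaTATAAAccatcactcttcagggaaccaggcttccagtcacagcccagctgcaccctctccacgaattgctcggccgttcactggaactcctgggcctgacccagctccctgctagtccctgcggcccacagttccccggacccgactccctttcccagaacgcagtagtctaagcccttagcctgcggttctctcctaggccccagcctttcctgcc
Tnfrsf9 (GRCm38.p6 chr4:150927749-150928048, plus strand): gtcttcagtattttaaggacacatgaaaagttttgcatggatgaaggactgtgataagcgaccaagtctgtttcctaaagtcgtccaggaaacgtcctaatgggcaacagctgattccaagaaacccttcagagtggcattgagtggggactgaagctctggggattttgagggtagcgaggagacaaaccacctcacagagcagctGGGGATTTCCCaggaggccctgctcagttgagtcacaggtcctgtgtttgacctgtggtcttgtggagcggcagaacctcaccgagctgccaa
In these windows Tnf carries TATAAA 29 bases before its start, Lta carries it 167 bases before, and neither holds an NF-kB motif of these letters. Ltb has 1 NF-kB match 87 bases before its start, on the opposite strand, and this Tnfrsf9 window has overlapping matches from 43 bases before the start, while its other RefSeq window has none. An NF-kB motif stood in 10 of 42 member windows (38 members had a window), which is 23.8%, and in 10.4% of all 32851 windows. TATAAA stood in 7 of 42 member windows, 16.7%, and in 13.6% of all windows. Of the called members only Tnf and Tnfrsf11a had a window in the table, and neither window held an NF-kB match. A match is a run of letters, not a measured binding site, and its absence covers only this window.

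The death ligands Fasl and Tnfsf10 had higher counts in the Ch25h-/- library. Fasl, the ligand by which cytotoxic lymphocytes trigger Fas, had 70.1 CPM in C57BL/6 and 121 CPM in Ch25h-/-, from 1200 and 1917 counts (log2 ratio 0.79, interval 0.68 to 0.89). Tnfsf10 (TRAIL) had 21.6 and 30.8 CPM (0.51, interval 0.32 to 0.71). Neither reached 2-fold. Of the 13 NK and cytotoxic markers, 13 had a log2 ratio above 0 and 4 were called higher, and their sum went from 13347 to 21487 CPM. Their part in the difference of Fasl and Tnfsf10 was not tested.

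The other ligands of this class differed less or were rare. Tnfsf12 (TWEAK) had 193 counts in C57BL/6 and 229 in Ch25h-/- (0.36, interval 0.08 to 0.64). It shares exons with the read-through gene that the table lists as Tnfsf12Tnfsf13, so its counts are uncertain. Tnfsf14 (LIGHT), which binds Ltbr and Tnfrsf14 and so is no strict death ligand, had 253 and 267 counts (0.19, interval -0.06 to 0.44). Tnfsf15 (TL1A) had 31 and 16 counts (-0.84, interval -1.81 to 0.07), a difference not separable from counting error.

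The 5 genes listed as death receptors, Tnfrsf12a among them, had no common direction, with 3 log2 ratios above 0 and 2 below. Fas, at 53.9 TPM in C57BL/6 and 50.4 TPM in Ch25h-/-, stood below its ligand Fasl in both, and in scaled counts had 28.8 CPM in C57BL/6 and 27.7 CPM in Ch25h-/- (log2 ratio -0.05, interval -0.24 to 0.14). Tnfrsf21 (death receptor 6) had 213 and 234 counts (0.25, interval -0.03 to 0.52). Tnfrsf10b, the mouse TRAIL death receptor (ENSMUSG00000022074, chromosome 14, 69767472 to 69784411, plus strand), had 36 counts in C57BL/6 and 75 in Ch25h-/-, a log2 ratio of 1.17 with the wide interval of 0.58 to 1.79. It is not called when genes need 5 CPM or when the interval must lie wholly beyond 2-fold. The neutrophil, Ly6C-high monocyte and NK and cytotoxic markers given above were higher as well, and their part in the difference of Tnfrsf10b was not tested. Tnfrsf25 (death receptor 3), at 35 and 56 counts, missed the 2-fold rule (0.79, interval 0.15 to 1.44).

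Tnfrsf12a (the TWEAK receptor Fn14, which has no death domain) had 95 counts in C57BL/6 and 49 in Ch25h-/- (-0.84, interval -1.37 to -0.33), and was the uncalled member nearest to 2-fold. The mouse decoy TRAIL receptors Tnfrsf22 (104 and 108 counts) and Tnfrsf23 (133 and 148 counts) and their relative Tnfrsf26 (401 and 402 counts) had log2 ratios of 0.11 to 0.27, with intervals that held 0. These 3 genes are similar neighbours on chromosome 7, so the split of reads among them is uncertain.

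Both receptors of TNF differed less than Tnf itself, whereas the lymphotoxin beta receptor differed more than its ligand Ltb. Tnfrsf1b had 677 CPM in C57BL/6 and 609.5 CPM in Ch25h-/- (log2 ratio -0.15, interval -0.19 to -0.11). Tnfrsf1a, the broadly expressed death domain receptor of TNF, had 109.9 and 107 CPM (-0.04, interval -0.14 to 0.05). For the 3 genes the ratio of receptor to ligand RNA therefore shifted: the log2 ratio of Tnfrsf1a exceeded that of Tnf by 1.06 (interval 0.89 to 1.24), and that of Tnfrsf1b did so by 0.96 (interval 0.81 to 1.10). Ltbr, the lymphotoxin beta receptor, had 27.3 and 17.8 CPM (-0.62, interval -0.83 to -0.40), a log2 ratio below that of Ltb by a difference of -0.32 (interval -0.60 to -0.05). Tnfrsf14 (HVEM), a receptor of LIGHT, had 56.7 and 48.0 CPM (-0.24, interval -0.38 to -0.10).

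Costimulatory members split between those higher and those lower in Ch25h-/-. Cd40, which antigen-presenting cells use to receive help from CD40 ligand (ENSMUSG00000017652, chromosome 2, 165055627 to 165072948, plus strand), had 1755 counts in C57BL/6 and 748 in Ch25h-/-. That is 103 against 47.2 CPM, a log2 ratio of -1.12 (interval -1.24 to -0.99), not called when the whole interval must lie beyond 2-fold. Cd70, the ligand of CD27 on activated antigen-presenting cells and lymphocytes (ENSMUSG00000019489, chromosome 17, 57145997 to 57149777, minus strand), had 39 counts against 3. Its log2 ratio of -3.59 has an interval of -5.93 to -1.94, and at under 5 CPM it is left out by the stricter filter.

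Dendritic cell markers moved with Cd40 and Cd70. Of the 10 markers listed, 7 were measured and 7 were called lower, and the list's sum went from 1526 CPM in C57BL/6 to 392 CPM in Ch25h-/-. Xcr1 (0 and 6 counts), Clec9a (5 and 13 counts) and Cd209a (11 and 5 counts) were too low to be measured. B cells also express Cd40, and the sum of the 8 B cell markers went from 1399 to 862 CPM, with 8 of 8 below 0. The part of either cell type in the difference of Cd40 and Cd70 was not tested.

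Tnfrsf9 and Cd27 were higher without reaching 2-fold. Tnfrsf9 had 7687 counts (449 CPM) in C57BL/6 and 10637 counts (671 CPM) in Ch25h-/- (log2 ratio 0.58, interval 0.54 to 0.62). Cd27, a receptor of T cells and NK cells, had 27.6 and 46.5 CPM (0.75, interval 0.58 to 0.92). These ratios lay within the range of the NK and cytotoxic markers, whose log2 ratios ran from 0.55 to 1.46, and the part of those cells in them was not tested.

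The other costimulatory receptors leaned lower. Tnfrsf8 had 364 CPM in C57BL/6 and 286 CPM in Ch25h-/- (-0.35, interval -0.41 to -0.30). Tnfrsf4 (OX40) had 235 and 133 counts (-0.71, interval -1.03 to -0.40), and Tnfrsf18 (GITR), which is 9551 bases away, had 708 and 571 counts (-0.20, interval -0.36 to -0.04). In the annotation, exons of 7 members overlap those of a gene on the opposite strand, among them Tnfrsf18 (Gm16008), Tnfsf9 (Gm11110) and Traf5 (Gm26879). Whether counting used strand is not given in the sources used here. The 12 T cell markers moved both ways, with 6 log2 ratios above and 6 below 0 and sums of 549 and 622 CPM. Cd28 was called higher (29.9 and 81.7 CPM) and Il7r lower (137 and 67.2 CPM). Cd3e had 6.49 and 7.51 CPM, Icos 88.1 and 79.0 CPM, and Lck, which NK cells also express, 186 and 320 CPM. The part of T cells in the ratios of these receptors was not tested.

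Among costimulatory ligands, Tnfsf4 (OX40 ligand) showed no difference beyond counting error, at 32.1 CPM in C57BL/6 and 31.8 CPM in Ch25h-/- (-0.01, interval -0.19 to 0.16). Tnfsf9 (4-1BB ligand) had 24.5 and 15.2 CPM (-0.69, interval -0.92 to -0.46). Tnfsf8 (CD30 ligand) had 63 and 96 counts (0.72, interval 0.25 to 1.20). Cd40lg, at 5 and 17 counts, and Tnfsf18, at 5 and 1 counts, were below the minimum mean of 1 CPM.

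The B cell branch was represented mainly by its receptors. Tnfrsf13c (the BAFF receptor) had 33.8 CPM in C57BL/6 and 20.2 CPM in Ch25h-/- (log2 ratio -0.74, interval -0.94 to -0.54), and Tnfrsf13b (TACI) had 29.2 and 17.4 CPM (-0.75, interval -0.97 to -0.54). The 8 B cell markers had a median log2 ratio of -0.68, from -1.10 to -0.09, and their part in these ratios was not tested. Tnfrsf17 (BCMA, a receptor of plasma cells) had 3 and 0 counts, beside plasma cell markers of which 5 of 6 were called lower, with Irf4, also a dendritic cell gene, among them. Of the ligands, Tnfsf13 (APRIL) had 27 and 19 counts and overlaps the read-through gene (13 and 18 counts). Tnfsf13b (BAFF) had 14 and 4 counts, under the minimum mean of 1 CPM.

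Tnfrsf11a, which encodes RANK, the receptor through which RANKL drives osteoclast formation and acts on dendritic cells (ENSMUSG00000026321, chromosome 1, 105780718 to 105847981, plus strand), had the lowest log2 ratio of the measured receptors. It had 607 counts (35.5 CPM) in C57BL/6 and 178 counts (11.2 CPM) in Ch25h-/-, a 3.16-fold difference with a log2 ratio of -1.66 (interval -1.91 to -1.42). With Cd70 it is called even when the whole interval must lie beyond 2-fold. Its ligand Tnfsf11 had 6 and 4 counts. The dendritic cell markers (summed 1526 and 392 CPM) and the red pulp macrophage markers (276 and 169 CPM, 3 of 8 called lower and 7 of 8 below 0) were lower as well, and their part in the difference was not tested.

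The TRAF adaptors, which couple the receptors to ubiquitin ligases and kinases, were all lower by less than 2-fold. Traf1, an NF-kB-induced adaptor without a RING domain, had 683 CPM in C57BL/6 and 519.6 CPM in Ch25h-/- (log2 ratio -0.39, interval -0.44 to -0.35). Traf3, which holds back the non-canonical pathway, had 237 and 186 CPM (-0.35, interval -0.42 to -0.28), and Traf6, shared with Toll-like and IL-1 receptors, had 141 and 105 CPM (-0.42, interval -0.51 to -0.33). Traf5 had 43.7 and 30.8 CPM and the most negative value (-0.51, interval -0.67 to -0.34). Its exons overlap Gm26879 on the opposite strand and Mir3473c on its own, so its counts are uncertain. Traf2 (101 and 91.0 CPM) and Traf4 (64.1 and 58.0 CPM) differed least, with a log2 ratio of -0.14 each. The median of the 6 was -0.37, beside 0.01 over all measured genes. Their intervals cover counting error only, and with 1 library per genotype a shift of this size cannot be set against variation between mice.

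The log2 ratios of ligands and their receptors were compared in sign and size. Of 19 ligand and receptor pairs listed, 14 had both genes measured. The list is not complete: it holds no pair with Lta, and none of Tnfsf10 with the decoy receptors Tnfrsf22 and Tnfrsf23. The counts of pairs depend on that choice. In 8 of the 14 the signs of the log2 ratios were opposite, in 5 both were below 0, and in 1, Tnfsf10 with Tnfrsf10b, both were above. Over all measured genes 6203 log2 ratios were above 0 and 5769 below, so opposite signs are common between any 2 genes. The count is not read as a trait of these pairs. Since the ratio of 2 genes within a library needs no scaling, the difference between receptor and ligand was given an exact conditional interval, and it excluded 0 in 13 of 14 pairs. The exception was Tnfsf13 with Tnfrsf13b. Counting intervals also excluded a ratio of 1 for many single genes, 3294 below it and 3706 above it of 11972 measured. Without Cd70, which passed the minimum through 1 library only, 7 of 13 pairs had opposite signs and the difference excluded 0 in 12. Pairs that share a gene, such as those of Tnf, Ltbr and Tnfsf14, are not independent.

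For 4 of the listed pairs, or 3 without Cd70, both genes were measured, the signs were opposite and both intervals lay clear of 0. Tnfrsf9 was above Tnfsf9 by 1.27 (interval 1.03 to 1.51). Tnfrsf8 was below Tnfsf8 by a difference of -1.07 (interval -1.56 to -0.59), and Tnfrsf12a was below Tnfsf12 by -1.20 (interval -1.80 to -0.61). Cd27 was above Cd70 by a log2 difference of 4.34 (interval 2.67 to 6.69), which rests on 3 counts of Cd70 in Ch25h-/-. Of the measured costimulatory pairs, the receptor had the higher ratio for CD27 and 4-1BB, and the ligand for CD30 and OX40 (Tnfrsf4 against Tnfsf4 -0.70, interval -1.06 to -0.33). Fas against Fasl differed by -0.84 (interval -1.06 to -0.62), while the interval of Fas itself held 0.

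**Figure D3:**
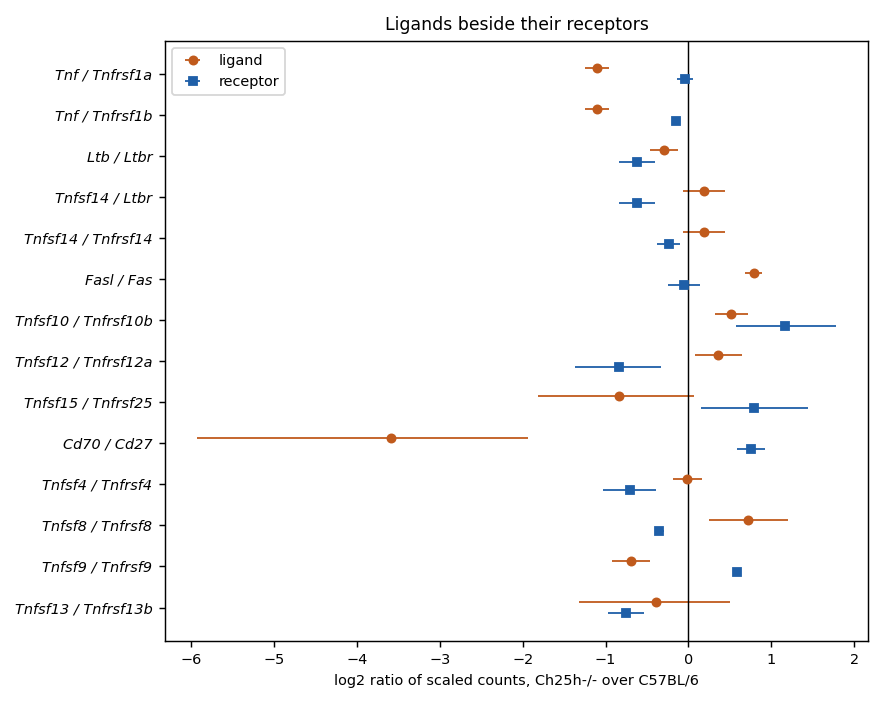
Log2 ratio, Ch25h-/- over C57BL/6 (x axis), of the ligand (circle) and the receptor (square) for the 14 pairs with both genes measured (y axis), with exact 95% intervals of counting error as bars and 1 library per genotype. The points of Cd70 and Cd27, and of Tnfsf9 and Tnfrsf9, lie on opposite sides of 0 with the receptor to the right, while those of Tnfsf8 and Tnfrsf8 lie with the ligand to the right.

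Beyond the members, 53 further genes were listed for the pathway, and 53 were measured. Of these, 2 were called lower (5.77% of all measured genes were) and 0 higher (2.07% of all were), with a median log2 ratio of -0.18. Map3k14 (NIK, the kinase of the non-canonical NF-kB pathway that TRAF3 targets for degradation) had 268 CPM in C57BL/6 and 122 CPM in Ch25h-/- (-1.14, interval -1.22 to -1.07). Tnip3, an A20-binding protein, had 24.9 and 7.76 CPM (-1.68, interval -1.98 to -1.39).

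The listed brakes on TNF signalling leaned lower, with 11 of 14 below 0 and a median of -0.33. The 3 above 0 were Cyld (0.17, interval 0.10 to 0.23), Otulin (0.10, interval 0.01 to 0.19) and Otud7b (0.25, interval 0.14 to 0.36). Of all 11972 measured genes, 5769 were below 0. Tnfaip3 (A20, the ubiquitin-editing brake on NF-kB) had the highest CPM of the list in both libraries, at 1503 and 761 CPM (-0.98, interval -1.01 to -0.95), just short of 2-fold under TMM scaling and called when total counts alone were used. Per exon length Nfkbia (the NF-kB inhibitor I-kappa-B alpha) stood higher, at 2103 and 1281 TPM against 804 and 395 TPM for Tnfaip3. Of the 34 genes listed under proximal signalling, 21 were below and 13 above 0, for a median of -0.03. That list is broad and also holds Adam17, Rhbdf2, Traip and Traf3ip1, which are not steps downstream of the receptors. The highest mean CPM of the proximal list was that of Tab2, an adaptor of the kinase TAK1 (479.6 and 513 CPM, log2 ratio 0.10). Cflar, the caspase-8 inhibitor c-FLIP, stood above it in C57BL/6 at 507.8 CPM. The 5 NF-kB subunit genes were all below 0, with the highest CPM for Nfkb1 (648 and 564 CPM, -0.20) and the lowest log2 ratio for Rel (-0.97, interval -1.05 to -0.89). Per exon length Nfkb2 led, at 416 and 337 TPM against 208 and 175 TPM for Nfkb1. Of 5 further family genes and adaptors outside the rule, Edaradd, the adaptor of the ectodysplasin receptor, was called lower (134 and 61 counts), and Relt, which had the highest CPM and TPM of these, had 60.8 and 53.3 CPM (-0.19).

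**Figure D4:**
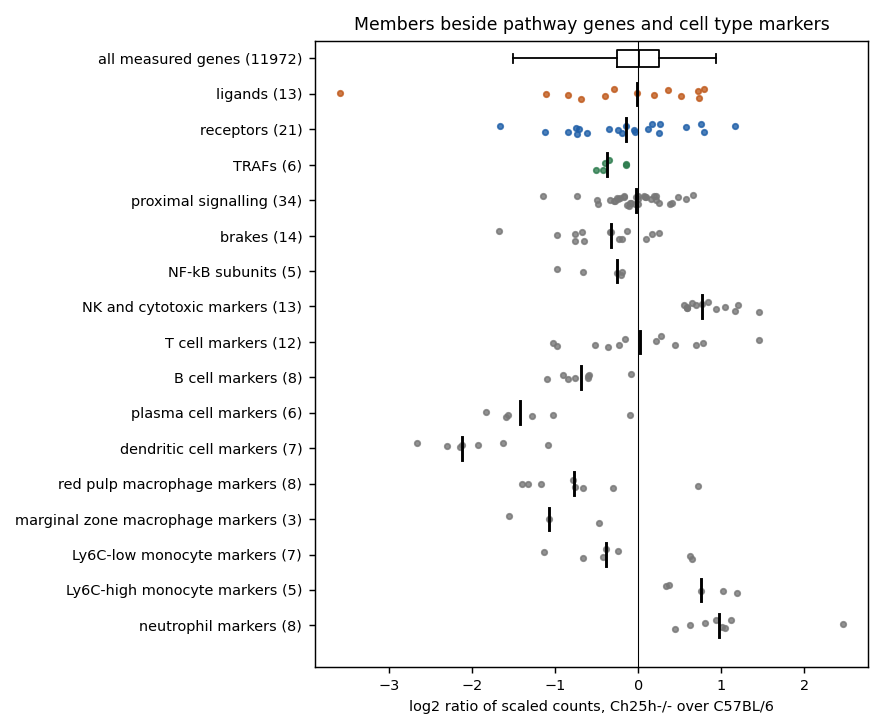
Log2 ratio, Ch25h-/- over C57BL/6 (x axis), of the measured genes of each list (y axis, number of genes in brackets), 1 library per genotype, with a dot per gene and a black bar at the median. The box at the top spans the quartiles of all 11972 measured genes with whiskers over the central 95%. The NK and cytotoxic markers (median 0.77) lie right of 0, the dendritic cell markers (median -2.13) lie left of it, and the ligands and receptors spread over both sides.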

How the data were processed

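Per the labels' protocols, TRIzol was used for RNA from the sorted cells and the KAPA RNA HyperPrep kit for libraries. Tools named in the submitters' processing notes are GSNAP, featureCounts (Subread 1.5.2), edgeR 3.26.8 and FastQC 0.11.9, on GRCm38 (mm10). Raw read counts per gene, as deposited, were the input. Strand setting, multi-mapping reads and pooling are not given in the sources used here.

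CPM used TMM factors (1.01 for C57BL/6, 0.991 for Ch25h-/-) from edgeR 4.0.16 in R 4.3.3. TPM divided counts by the union exon length in GENCODE M21 (GRCm38), which also gave positions. All 49 member IDs were found there, 1 of them under another symbol. Intervals of a ratio are Clopper-Pearson, on the Ch25h-/- share of a gene's counts, and those between genes are exact and conditional (scipy 1.17.1). They cover counting error only, and without molecular identifiers PCR copies of a molecule count as separate reads. Their median width to each side was 0.67 (log2) for members under 5 CPM and 0.10 for members from 50 CPM. No p-value was computed. The calculation was tested on simulated data.

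The members, lists, roles and the rule for named genes (called members, the 2 most abundant of each role, the 3 nearest misses, and of the pathway the called and most abundant genes) were chosen with earlier results of these data known. Other members and markers are named for completeness. Rel, Nfkbia, Nfkb2, Cflar, Cyld, Otulin and Otud7b, like the counts without Cd70, were chosen after their values were seen. The TATAAA motif and the ligand and receptor pairs were added after the counts were seen. The alternatives tried were 3 scalings (upper quartile, totals, and size factors of DESeq2 1.42.0), a minimum of 5 CPM or of 1 count, a call only where the interval lies wholly beyond 2-fold, and a prior count of 2.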

Additional observations from a re-analysis of the deposited data

How the results depend on the processing

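Under the 3 other scalings (DESeq2 size factors, total counts, upper quartile) the same 5 members were called, and log2 ratios moved by at most 0.03 in size. A prior count of 2 left the same 5 calls but moved Cd70 from -3.59 to -2.95, the largest shift of a measured member. A filter at 5 CPM left 0 members called higher and 3 lower, without Cd70 and Tnfrsf10b. No filter beyond 1 count gave 2 higher, with Cd40lg added, and 5 lower, with Tnfsf13b added. When the whole interval had to lie beyond 2-fold, 0 were higher and 2 lower, Cd70 and Tnfrsf11a. Over all measured genes that setting left 67 higher and 318 lower, the 5 CPM filter left 120 and 347, and no filter gave 435 and 1031, where the chosen settings gave 248 and 691. The median log2 ratio of the measured members, -0.18, became -0.20 with total counts and -0.20 with no filter beyond 1 count. Pathway calls stayed at 0 higher and 2 lower except with total counts, where Tnfaip3 made 3 lower. The 272 recomputed log2 ratios of single members stayed within their counting intervals, which is little of a check. The filters and the stricter call leave a ratio unchanged by construction, and a scaling shifts every gene equally. Only the prior count of 2 changes ratios gene by gene. For members with under 100 counts in both libraries, among them Tnfrsf10b, Tnfrsf25, Tnfsf15 and Lta, depth limits what can be said. No paired analysis was possible because each genotype has 1 library.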

Other observations

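Several members lie in genomic clusters, and some neighbours within them had unequal ratios. On chromosome 17, Tnfsf9, Cd70 and Tnfsf14 lie in a row, with 38239 bases between Tnfsf9 and Cd70 and 39714 between Cd70 and Tnfsf14. Their log2 ratios were -0.69, -3.59 and 0.19, and that of Cd70 was below that of Tnfsf9 by -2.90 (exact conditional interval -5.25 to -1.22). Cd70 had 39 counts in C57BL/6 and 3 in Ch25h-/-. It passed the 1 CPM minimum only through C57BL/6, so it had to differ. Also on chromosome 17, Tnf lies 3060 bases from Ltb and was below it by -0.81 (interval -1.03 to -0.59).

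On chromosome 6, Cd27, Ltbr and Tnfrsf1a lie in a row at log2 ratios of 0.75, -0.62 and -0.04, and Ltbr was below Cd27 by -1.37 (interval -1.65 to -1.09). On chromosome 4, Tnfsf15 and Tnfsf8, 86194 bases apart, had -0.84 and 0.72, and Tnfrsf1b and Tnfrsf8, 20266 bases apart, had -0.15 and -0.35. The decoy receptors Tnfrsf26, Tnfrsf22 and Tnfrsf23 on chromosome 7 showed no difference beyond counting error, with values of 0.05 (interval -0.40 to 0.50) and 0.10 (interval -0.44 to 0.64). For Tnfsf13 and Tnfsf12 on chromosome 11 the difference of 0.75 (interval -0.20 to 1.73) also held 0. These are values of 2 libraries, and no test of genomic position was made. No share over other neighbouring genes is set beside them.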
